A study of Mus musculus with 3 samples.

Results

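The cells described here form an epithelial class of the mouse cochlear explant that carries RNA of Gabrp, Alox15, Prss36, Fetub and Prss22. They were chosen among barcodes with at least 200 genes, a mitochondrial share of 1 to 20% and at least 1 UMI of the epithelial gene Epcam, a UMI (unique molecular identifier) marking 1 captured RNA molecule. In each cell, 4 sets of 5 genes were scored by their mean log-transformed level, and a member is a cell in which the Gabrp set scored highest and at least 2 of its genes had a UMI. The other sets were S (Sox2, Otog, Rorb, Gjb2, Ceacam16), E (Epyc, Aqp4, Frzb, Pcdh17, Orm2) and R (Vmo1, Lypd2, Otx2, Meis2, Lrp2). The rule found 167 members among 849 kept Epcam-positive cells, 1595 kept cells and 2395 barcodes. Of the other Epcam-positive cells, 83 fell in class S, 183 in class E, 280 in class R and 136 in none.

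The explants came from mice of 4 to 6 weeks with the alleles rtTA, tet-on-Myc and tet-on-NICD, which the control cultures carried too. NICD is the intracellular domain of Notch, and rtTA drives both transgenes when doxycycline (Dox) is present. Treated cultures had 2 µg/ml Dox over 4 days and control cultures had water, after which cells of the sensory epithelium were dissociated. There were 2 Dox libraries and 1 control library, each from 4 pooled cultures, so animals cannot be told apart within a library. The labels name no promoter for rtTA, and no library analysed here had Dox without the transgenes, so the drug and the transgenes cannot be told apart.

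As background, the floor of the cochlear duct is lined by supporting cells and, beside them, by epithelial cells of the sulci and of the spiral limbus. The tectorial membrane, an extracellular gel, lies over the hair cells and is anchored at the spiral limbus, where otoancorin, the product of Otoa, attaches it to the cells. Gabrp encodes the pi subunit of the GABA-A receptor, a chloride channel found in several non-neuronal epithelia. Alox15 encodes a lipoxygenase that oxygenates polyunsaturated fatty acids, Prss36 and Prss22 encode serine proteases, and Fetub encodes fetuin-B, a protease inhibitor.

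In the GENCODE M21 annotation of GRCm38, Gabrp (ENSMUSG00000020159) lies on chromosome 11 from 33550781 to 33578959 on the minus strand and Alox15 (ENSMUSG00000018924) on chromosome 11 from 70344152 to 70352031 on the minus strand. Prss36 lies on chromosome 7 from 127932638 to 127946725, minus strand, and Otoa (ENSMUSG00000034990) on chromosome 7 from 121081650 to 121163097, plus strand. Fetub lies on chromosome 16 from 22918334 to 22939778, plus strand, and Prss22 on chromosome 17 from 23993534 to 23998100, minus strand. The 6 genes thus lie on 4 chromosomes.

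RefSeq promoter windows of GRCm38.p6, from 250 bases before the start site to 50 after it, were found for 4 of the 6 genes, Gabrp, Prss36, Fetub and Otoa. The windows of Gabrp and Otoa are shown because Gabrp had no UMI in control epithelium without copied barcodes and Otoa is the gene of the label that the rule did not use. They were searched for TGGGAA, the core letters bound by RBPJ, the DNA-binding partner of NICD, and for CACGTG, the E-box bound by MYC, on both strands, with matches to be set in capitals.
Gabrp, chr11:33578908-33579207, minus strand: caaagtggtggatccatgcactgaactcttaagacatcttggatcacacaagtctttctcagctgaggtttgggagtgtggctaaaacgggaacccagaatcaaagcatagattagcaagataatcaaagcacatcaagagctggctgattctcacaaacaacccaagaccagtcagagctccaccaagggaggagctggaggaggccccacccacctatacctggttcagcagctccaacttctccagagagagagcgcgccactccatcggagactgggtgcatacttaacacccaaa
Otoa, chr7:121083174-121083473, plus strand: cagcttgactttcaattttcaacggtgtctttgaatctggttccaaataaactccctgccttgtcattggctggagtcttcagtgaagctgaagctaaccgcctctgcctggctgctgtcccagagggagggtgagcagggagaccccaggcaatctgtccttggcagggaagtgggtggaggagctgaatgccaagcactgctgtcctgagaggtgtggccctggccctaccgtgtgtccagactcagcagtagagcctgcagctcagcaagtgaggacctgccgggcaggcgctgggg
Neither window holds a match, so no base is in capitals. Among 32851 RefSeq mouse promoter windows of this length, 25.6% hold TGGGAA or its complement and 7.15% hold CACGTG. Both Fetub windows hold 1 TGGGAA, and the Prss36 window holds neither motif.

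The libraries shared barcodes, and this bears on the control members. In all, 125 barcodes were found in more than 1 library, 68 of them in all 3. The shallower of such barcodes, called copies here, numbered 193 and had a median of 153-fold fewer UMIs than the deepest barcode of the same sequence (range 59.5 to 386), with at most 1885 UMIs. A median of 99.6% of a copy's UMIs lay in genes detected in its deep counterpart, against 94.2% for another deep cell of the same library. Among kept Epcam-positive cells, copies numbered 16 in Dox 1, 28 in Dox 2 and 42 of 90 in the control. The 3 control members were 1 cell of 47815 UMIs, which gave 95.3% of the UMIs of the group, and 2 copies of 1412 and 949 UMIs whose barcodes are Dox 1 members of 225065 and 156184 UMIs. The deep cell had 0 UMIs of Gabrp and Alox15, 11 of Prss36, 4 of Fetub and 65 of Prss22, and it was not chosen when Prss22 was left out of the set. Control member values therefore describe essentially 1 cell.

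Members made up 49 of 465 kept cells in Dox 1 (10.5%, 95% Clopper-Pearson interval 7.90 to 13.7%), 115 of 824 in Dox 2 (14.0%, 11.7 to 16.5%) and 3 of 306 in the control (0.980%, 0.203 to 2.84%). The Dox libraries lay close together and the control interval lay below both. These shares also depend on the levels of the competing sets, which are given below. Of the Epcam-positive cells, members were 22.8% in Dox 1, 21.1% in Dox 2 and 3.33% in the control. With copies left out the shares were 49 of 199 (24.6%) in Dox 1, 115 of 516 (22.3%) in Dox 2 and 1 of 48 (2.08%, 0.0527 to 11.1%) in the control. With 1 control library no test over libraries was made, and the intervals cover counting error only.

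**Figure D1:**
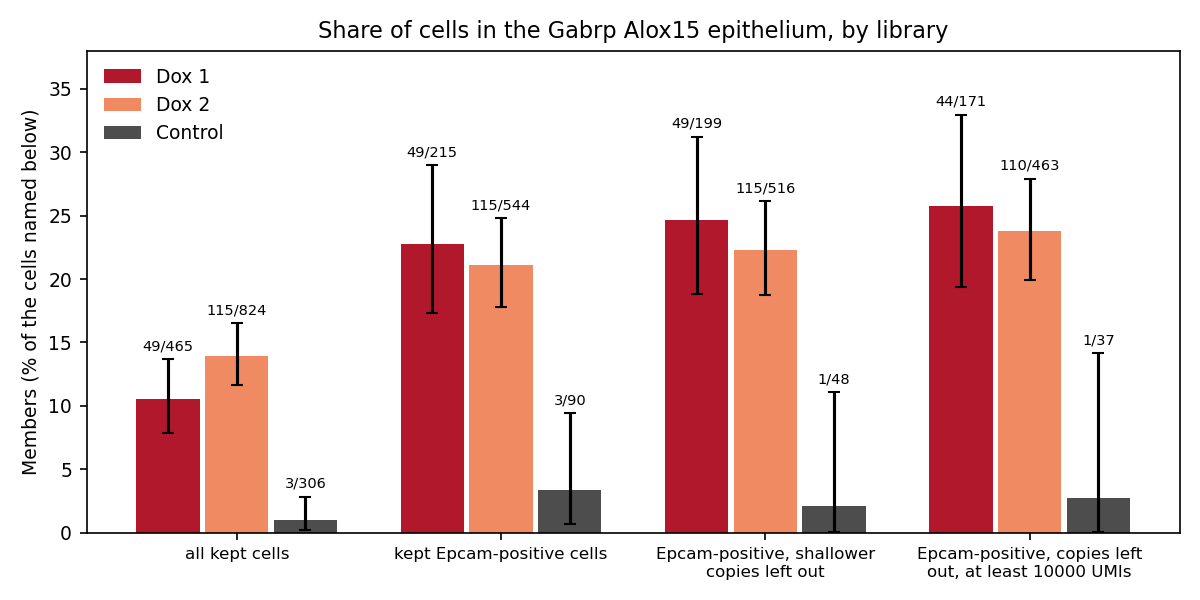
Members as a percentage of the cells named under each group of bars, in Dox 1, Dox 2 and control libraries. Bars start at 0, whiskers are 95% Clopper-Pearson intervals and the fractions give members over cells. In each of the 4 denominators the control interval lies below both Dox shares.

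Depth differed between the libraries and bears on these shares. The libraries held 20309102 UMIs in Dox 1, 33385927 in Dox 2 and 5436731 in the control, and Epcam-positive non-members without copies had medians of 53450, 41375 and 31363 UMIs in Dox 1, Dox 2 and control. Among Epcam-positive cells of at least 10000 UMIs, without copies, members were 44 of 171 (25.7%) in Dox 1, 110 of 463 (23.8%) in Dox 2 and 1 of 37 (2.70%, 0.0684 to 14.2%) in the control. When each cell was thinned to 1000 UMIs, the rule found 9 of 411 (2.19%), 14 of 745 (1.88%) and 2 of 228 (0.877%), copies included. The intervals overlap, so a difference was not detectable at that depth. With copies left out, the thinned shares were 2.25% in Dox 1, 1.92% in Dox 2 and 0.469% in the control.

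The share depends on the Gabrp set outscoring the others, and cells with UMIs of the set were more widespread. Without copies, at least 2 of the 5 genes had a UMI in 70.9% of Epcam-positive cells of Dox 1, 55.0% of Dox 2 and 39.6% of the control (interval 25.8 to 54.7%). At least 3 had a UMI in 48.2% of Dox 1, 31.8% of Dox 2 and 18.8% of the control (8.95 to 32.6%). Of the non-members with at least 2 of these genes, copies included, class E scored highest in 52 of 92 in Dox 1 and in 90 of 169 in Dox 2, while class S scored highest in 7 of 18 control cells. The 5 members nearest the threshold led the next set by 0.016 to 0.031 on the mean log scale, and the 5 nearest non-members trailed or tied by at most 0.008. Genes of the competing sets were mostly higher in the control epithelium without copies, in the edgeR fit described below. Their median log2 fold change with Dox was -1.75 in set S, -0.96 in set E and -1.49 in set R. The Gabrp set had 0.78, and 0.13 with members left out. Members were chosen on this set, so leaving them out lowers it mainly in the Dox sums. With members left out, sets S, E and R had -1.50, -0.62 and -1.14. Pcdh17 and Lypd2 went the other way, and Sox2 was near level (log2 0.04). The part of these levels in the lower control share was not tested.

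The genes of the rule are given as a description, since they chose the cells. Gabrp summed to 209 CPM (its UMIs divided by the library's UMIs of that class and scaled to counts per 1000000) in members of Dox 1 and 93.1 CPM in members of Dox 2, against 15.5 and 4.98 CPM in the other Epcam-positive cells of the same libraries. The control members had 2 Gabrp UMIs, both in copies, and the other control cells had none. Members thus stood above the others in both Dox libraries, with Dox 1 members at more than 2-fold the level of Dox 2 members. Alox15 summed to 247 and 239 CPM in Dox 1 and Dox 2 members, against 48.1 and 34.3 CPM in the other cells; the control had 19.9 CPM, 1 UMI, in members and 9.39 CPM in the others. Prss36 had 228, 121 and 219 CPM in members of Dox 1, Dox 2 and control, and 53.1, 38.9 and 52.8 CPM in the others. Both were higher in members of both Dox libraries, while the control members held 1 Alox15 UMI and 11 Prss36 UMIs. Fetub had 75.0, 60.9 and 99.6 CPM in members and 6.52, 8.21 and 17.6 CPM in the others. Prss22 had 136 and 160 CPM in Dox 1 and Dox 2 members and 23.05 and 14.7 CPM in the others. In the control, Prss22 stood at 1295 CPM in the members, from 65 UMIs (exact Poisson interval 1000 to 1651 CPM), against 89.8 CPM in the others.

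**Figure D2:**
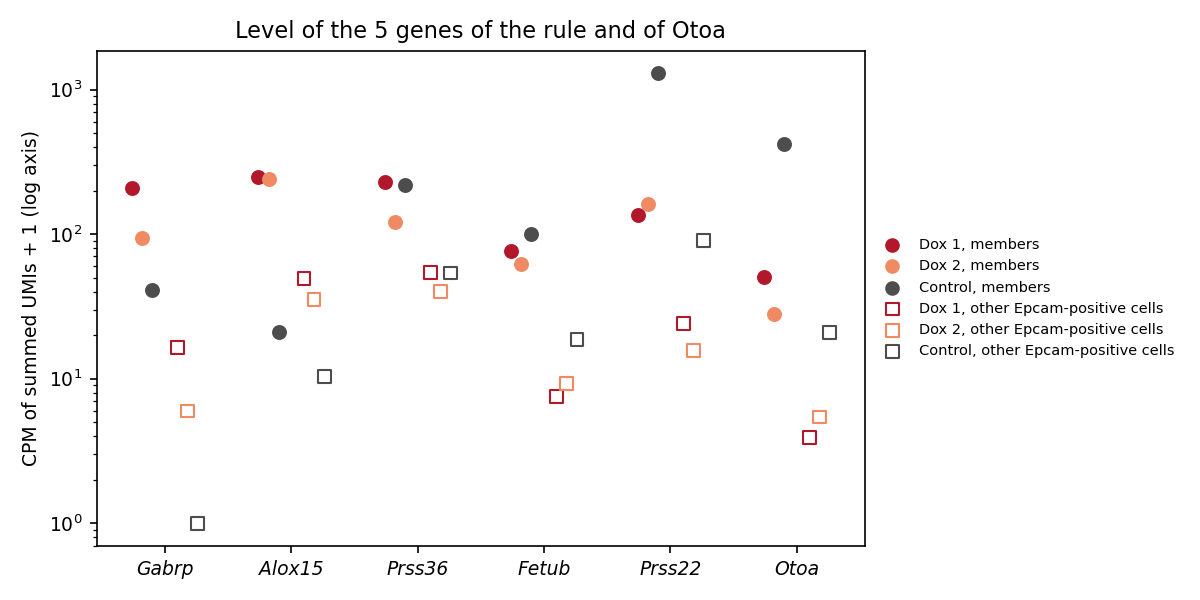
CPM of summed UMIs plus 1, on a log axis, of the 5 genes of the rule and of Otoa in members (filled circles) and other Epcam-positive cells (open squares) of Dox 1, Dox 2 and the control. In both Dox libraries the members lie above the other cells for each of the 6 genes, Gabrp at 209 and 93.1 CPM against 15.5 and 4.98 CPM.

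To see each gene in cells it had not helped to choose, members were chosen again with the other 4 genes. Gabrp was then 9.33-fold higher in the chosen cells than in the rest in Dox 1 and 10.7-fold in Dox 2. Fetub was 10.1- and 5.96-fold higher, Prss22 5.74- and 4.39-fold, Alox15 3.83- and 5.21-fold and Prss36 3.91- and 2.91-fold, Dox 1 first in each. In both Dox libraries each gene thus stood higher in cells picked without it. In the control, Gabrp had 0 UMIs in the 1 cell so chosen, and Alox15 and Prss22 each had 0 in the 2 cells so chosen. No test was made, since the remaining genes come from the same cells.

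The genes were unevenly spread among members. Gabrp had a UMI in 40 of 49 members (81.6%) in Dox 1 and 71 of 115 (61.7%) in Dox 2, and the 5 Dox 1 members and 12 Dox 2 members with the most Gabrp held 40.4% and 43.6% of its UMIs. Of the 6 genes Prss22 was the least even, with 55.5% and 60.0% of its UMIs in as many cells. With each cell thinned to 2000 UMIs, Gabrp had a UMI in 30.6% of Dox 1 members and 10.5% of Dox 2 members, against 3.45% and 0.267% of the other Epcam-positive cells. Macrophage-type cells, which had no Epcam UMI, were taken as a background. In them Gabrp, Alox15, Fetub, Prss22 and Otoa had a UMI in 0 of 35 cells of Dox 1 (median 17756 UMIs) and 0 of 11 of Dox 2 (median 29260 UMIs). Prss36 had a UMI in 2 of those 11 Dox 2 cells, against 94.8% of Dox 2 members.

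Otoa, which the rule did not use, was 49.8 CPM in Dox 1 members and 27.0 CPM in Dox 2 members, against 2.92 and 4.43 CPM in the other epithelium. The log2 ratio, with 10 CPM added to both, was 2.21 in Dox 1 and 1.36 in Dox 2. A UMI of Otoa was found in 27 of 49 Dox 1 members (55.1%) and 46 of 115 Dox 2 members (40.0%), so many members had none detected. Members held 27 of 39 Otoa-positive epithelial cells in Dox 1, 46 of 86 in Dox 2 and 1 of 9 in the control, where 5 were in class S. The deep control cell had 21 Otoa UMIs (439 CPM of that cell, exact Poisson interval 272 to 671 CPM), against 19.96 CPM in the other control epithelium. Since the members were chosen on cells of the same libraries, this is a description with no test.

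Ceacam16, a gene of set S that encodes a tectorial membrane protein, ran at 175 CPM in Dox 1 members and 110 CPM in Dox 2 members, against 559 and 129 CPM in class S. Set S was the second highest set in 57.1% of Dox 1 members and 57.4% of Dox 2 members, and set E in 36.7% and 35.7%. The supporting cell gene Sox2 was low, at 10.2 and 8.44 CPM in members and 240 and 114 CPM in class S. Vmo1, a gene of set R, was 16.4 and 13.0 CPM in members and 1163 and 1078 CPM in class R.

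Beyond the rule genes, 8169 genes averaged at least 10 CPM over members and other epithelium in both Dox libraries. Of these, 31 were at least 2-fold higher in members in both libraries (0.379%) and 20 at least 2-fold lower (0.245%), with 10 CPM added. Leaving out copies gave 31 and 20 as well, 29 and 20 of them shared. The counts depended on other choices. They were 54 and 40 with 1 CPM added, 58 and 76 without Dox 1, 85 and 62 without Dox 2, 19 and 52 by the mean of per-cell CPM, and 79 and 138 with cells thinned to 1000 UMIs, where 7 of the 31 and 12 of the 20 were shared. The median log2 ratio over these genes was 0.024 in Dox 1 and -0.006 in Dox 2. Among the genes at least 2-fold higher, 24 had at least 3 UMIs in the control members and 18 were at least 2-fold higher there too. These control values describe essentially 1 cell. The share of all 8169 genes at least 2-fold higher in it was not determined, so the 18 are no replication.

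The other epithelium is a mixture, so the same genes were also set against each class in both Dox libraries. Of the 31 higher genes, 16 were at least 2-fold above class S, 13 above class E and 29 above class R. Fxyd3, Tpm2, Hddc3, Trp53inp1, Padi2, Pdk4 and Otoa, 7 in all, were past 2-fold against each of the 3 classes. Of the 20 lower genes, 8 were at least 2-fold below class S, 3 below class E and 18 below class R. Socs2, which encodes a suppressor of cytokine signalling, was the 1 gene below all 3, at 78.1 and 88.7 CPM in Dox 1 and Dox 2 members, against 351 and 252 CPM in class S, 178 and 199 CPM in class E and 317 and 322 CPM in class R. This comparison was added after the values were seen.

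Fxyd3, a regulator of the sodium-potassium pump, had the highest smaller ratio of both Dox libraries, with 389 and 280 CPM in Dox 1 and Dox 2 members, against 52.1 and 34.5 CPM in the others. Clu, the secreted chaperone clusterin, was 5800 and 4008 CPM in members and 2222 and 1701 CPM in the others. Class E had 2794 and 3288 CPM of Clu. Tpm2, a tropomyosin, was 195 and 227 CPM in members, against 51.9 and 74.4 CPM in the others. Map1b, which binds microtubules, was 781 and 574 CPM in members, against 230 and 252 CPM in the others. Class E had 390 and 548 CPM of Map1b, near the members in Dox 2. Mylk, the myosin light chain kinase, was 31.1 and 20.2 CPM in members and 3.26 and 2.69 CPM in the others. Mapt, Nebl and Ablim1, which bind microtubules or actin, had log2 ratios of 1.57, 1.58 and 1.69 in Dox 1 and 1.07, 1.11 and 1.10 in Dox 2. Against single classes, Clu, Map1b, Mapt and Nebl were past 2-fold in both Dox libraries against class R alone. Ablim1 was so against classes S and R, and Mylk against classes E and R.

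Galnt7, which acts in mucin-type glycosylation, was 75.9 and 90.3 CPM in Dox 1 and Dox 2 members, against 11.8 and 35.8 CPM in the others. The sialyltransferase genes St3gal1 and St3gal5 had log2 ratios of 1.59 and 1.12 in Dox 1 and 1.19 and 1.36 in Dox 2. Against single classes, both were past 2-fold in both Dox libraries against class R alone, and Galnt7 against classes E and R. Pdk4, which encodes an inhibitor of pyruvate dehydrogenase, was 265 and 167 CPM in members and 76.6 and 60.8 CPM in the others. Padi2, a peptidylarginine deiminase, was 198 and 176 CPM in members and 74.1 and 58.1 CPM in the others. Wfdc18, of the whey acidic protein family, was 450 and 622 CPM in members and 44.7 and 242 CPM in the others. Its log2 ratio was 3.07 in Dox 1 and 1.33 in Dox 2, and class E had 94.4 and 450 CPM of it. The others at least 2-fold higher were Hddc3, Emp1, Trp53inp1, Cpm, Srgap1, Col11a1, Lgalsl, Scara3, Rsph1, Cavin3, Tlx3, Mgll, Car9, Wfdc3, Nrp2 and Cd44, besides Otoa.

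Of the 20 lower genes, Gpx3, a secreted glutathione peroxidase, was 2.55 and 6.79 CPM in Dox 1 and Dox 2 members, against 85.3 and 125 CPM in the others. Class R had 264 and 202 CPM, class S 0.494 and 6.81 CPM, and class E 0.530 and 0.384 CPM. Cndp2, a dipeptidase, was 15.9 and 12.5 CPM in members and 119 and 206 CPM in the others, and it too was at 10.9 and 19.8 CPM in class S and 13.8 and 14.6 CPM in class E, against 345 and 326 CPM in class R. Fut9, a fucosyltransferase gene, was 2.26 and 4.04 CPM in members, 36.1 and 41.5 CPM in class S, 0.795 and 6.33 CPM in class E and 157 and 171 CPM in class R. Emx2, a homeobox factor of the inner ear, was 1.13 and 2.20 CPM in members and 27.2 and 40.0 CPM in the others. Timp3, an inhibitor of matrix metalloproteases, was 26.0 and 19.6 CPM in members and 82.5 and 109 CPM in the others. The remaining lower genes were Sgk3, Sparc, Ppp2r2b, Fam20a, Ptprz1, Atp2b2, Socs2, Ifitm1, Serpina3n, Stim2, Tbc1d9, Fibin, Robo1, Gas1 and Gata2.

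**Figure D3:**
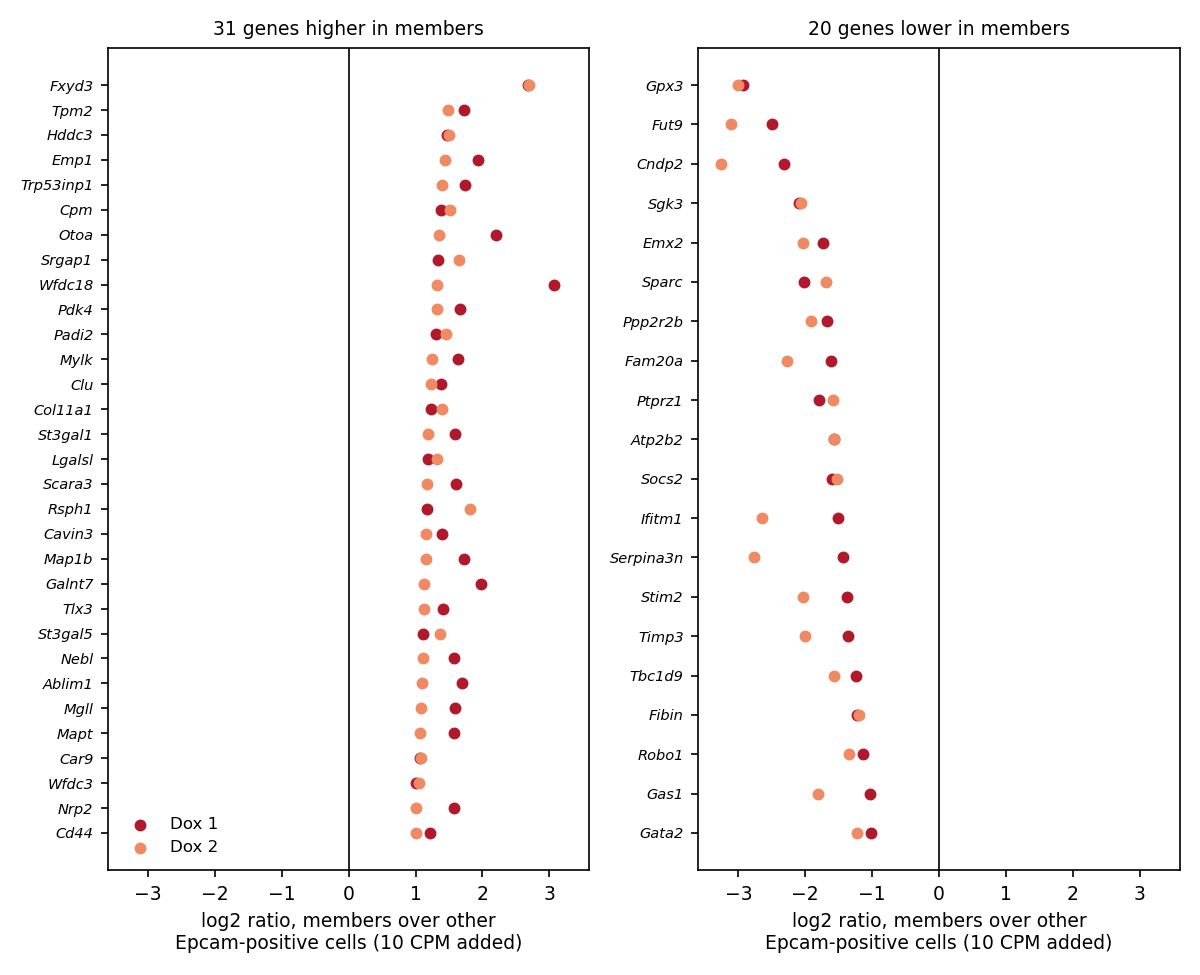
Log2 ratio of members over other Epcam-positive cells, with 10 CPM added to both, in Dox 1 and Dox 2, for the 31 genes at least 2-fold higher (left) and the 20 at least 2-fold lower (right). Fxyd3 at 2.69 and 2.70 and Gpx3 at -2.93 and -3.01 head the panels.

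When the ratio in the control was made to count as well, 30 genes with the highest smallest ratio over the 3 libraries were named, of which 12 are among the 31. They included Fxyd3, Tpm2, Hddc3, Trp53inp1 and Srgap1, and added genes under 2-fold in at least 1 library, such as Irx3, a homeobox factor with log2 ratios of 0.97, 0.87 and 1.80 in Dox 1, Dox 2 and control, and Ccnd1, the cyclin D1 gene, with 0.83, 0.59 and 1.62. The control values rest on the single deep cell.

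Gene lists that bear on the label are set against all 8169 genes, of which 0.379% were higher and 0.245% lower. At such shares, a short list with no gene past 2-fold is no result about that list. Otoa is itself a gene of the label. Of 14 apical matrix and tectorial membrane genes, 9 were looked at and 3 were at least 2-fold higher, Otoa, Clu and Col11a1, a fibrillar collagen gene; the list's median log2 ratio was 0.11 in Dox 1 and 0.45 in Dox 2. Of 26 serine protease and inhibitor genes, 13 were looked at and Wfdc18 was the single gene past 2-fold. Of 19 eicosanoid genes, 6 were looked at and none was 2-fold higher in both libraries. Alox12e, another lipoxygenase gene, missed it in Dox 2, at 296 and 240 CPM in Dox 1 and Dox 2 members and 141 and 118 CPM in the others. Pla2g7, which encodes a platelet-activating factor acetylhydrolase, missed it in Dox 1, at 59.4 and 87.4 CPM in members and 24.7 and 14.6 CPM in the others. Of 26 further GABA and glycine receptor and transport genes, 17 had no UMI in Dox members and 1, Gabbr1, was looked at, at 13.3 and 12.7 CPM in members and 9.33 and 11.1 CPM in the others. No gene was past 2-fold among 5 of 12 keratins, 9 of 27 ion and water transport genes or 23 of 25 junction genes looked at.

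The genes of the transgenes were at like levels in members and the rest. Notch1 was 549 and 468 CPM in Dox 1 and Dox 2 members, against 430 and 320 CPM in the others, and Myc was 57.2 and 52.1 CPM in members, against 51.0 and 48.6 CPM in the others. Of 12 Notch-responsive genes looked at, Gas1 was lower and none higher, and of 30 MYC-responsive growth genes none was past 2-fold. Over all 8169 genes 0.379% were higher and 0.245% lower, so these counts say little about the lists. The median of 68 ribosomal protein genes was -0.05 in Dox 1 and 0.02 in Dox 2 on the log2 scale.

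Of the genes in 16 marker lists, 12 were looked at and none was past 2-fold in both Dox libraries. With 0.379% of all 8169 genes higher and 0.245% lower, that count is no result about the markers. Macrophage markers summed to 8.77 and 8.995 CPM in Dox 1 and Dox 2 members, against 16.9 and 23.8 CPM in the others, with 7 of 10 at 0 in Dox members, C1qa, C1qb, C1qc and Lyz2 among them. Fibroblast and fibrocyte markers summed to 45.3 and 17.3 CPM in members and 92.9 and 87.5 CPM in the others. Pericyte and endothelial markers summed to 17.5 and 14.3 CPM in members and 18.1 and 29.7 CPM in the others, and neuron markers to 5.09 and 12.3 CPM in members and 16.3 and 3.48 CPM in the others. Hair cell markers summed to 204 and 278 CPM in members and 248 and 186 CPM in the others, most of it Espn and Myo6, while Slc26a5, Otof, Ocm, Tmc1 and Lhx3 were at 0 in Dox members. Glia markers summed to 139 and 130 CPM in members, of which Sox10, also an otic epithelial gene, gave 101 and 97.8 CPM, against 235 and 110 CPM for the list in the others. Pillar and Deiters cell markers summed to 1571 and 1265 CPM in members and 2287 and 1331 CPM in the others. Stratified squamous markers summed to 40.2 and 32.1 CPM in members and 20.1 and 23.8 CPM in the others, secretory markers to 62.8 and 65.2 CPM in members and 57.8 and 45.3 CPM in the others, and stria marginal markers to 90.6 and 81.3 CPM in members and 107 and 114 CPM in the others. Multiciliated, ionocyte, melanocyte, neutrophil, lymphocyte and red blood cell lists each summed to under 10 CPM in Dox members.

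Members fell in several clusters when cells were clustered without the 21 rule genes. Beyond scaling each cell to the same total, depth and cell cycle were not adjusted for. Their part in the split was not tested. Of 10 Leiden clusters of kept Epcam-positive cells, cluster 7 held 60 members among 78 cells (76.9%) and cluster 5 held 47 among 84 (56.0%). A further 28 members lay in cluster 1, 16 in cluster 2 and 12 in cluster 3. Clusters 5, 7 and 1 had 15, 14 and 11 members from Dox 1 and 31, 46 and 17 from Dox 2. Clusters 2, 3 and 8 held members of both Dox libraries too. Clusters are numbered only, since the classes overlap in them.

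**Figure D4:**
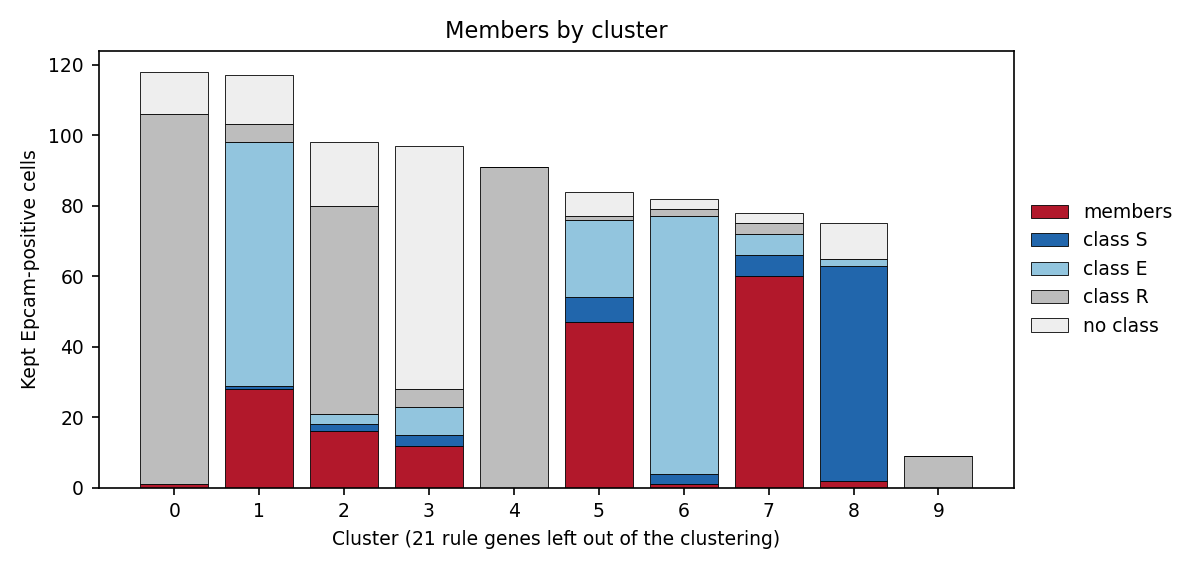
Number of kept Epcam-positive cells in each of 10 Leiden clusters, coloured by members and by classes S, E, R or none. Members make up 60 of 78 cells of cluster 7 and 47 of 84 of cluster 5, and clusters 4 and 9 hold none.

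Levels varied among the clusters that held most members. Members in cluster 5 had Gabrp at 305 and 155 CPM in Dox 1 and Dox 2, Otoa at 63.6 and 62.8 CPM, Ceacam16 at 313 and 328 CPM and Clu at 7535 and 7298 CPM. Members in cluster 7 had Gabrp at 175 and 87.1 CPM, Otoa at 56.4 and 29.5 CPM and Ceacam16 at 155 and 66.3 CPM. Members in cluster 1 had Gabrp at 149 and 103 CPM, Otoa at 24.5 and 1.01 CPM and Mki67, a gene of dividing cells, at 621 and 420 CPM. Cluster 1 was led by Reg3g, Pclaf and Hist1h1a, and the cell cycle genes Birc5 and Cdk1 were among its leading genes. The 14 Dox 2 members in cluster 2 had 14.3 CPM of Gabrp and no Otoa, and 432 CPM of Prss22. Cluster 2 was led by Anxa1, Ifitm1 and Ccl2, and most of its cells (59 of 98) were of class R. Cluster 3 had a median of 1007 UMIs per cell, far below the others, and held both control copies.

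Cell cycle genes were detected in many members of both Dox libraries, as in classes E and R, and in fewer cells of class S. With cells thinned to 2000 UMIs, at least 3 of 20 S phase genes had a UMI in 34.7% of Dox 1 members and 41.2% of Dox 2 members, against 29.7% and 35.2% of the other Epcam-positive cells and 1 of 30 and 3 of 10 macrophage-type cells. Class S had 2.78% and 4.17%, class E 43.3% and 38.9%, and class R 35.9% and 34.8%. At least 3 of 20 G2/M genes had a UMI in 46.9% and 40.4% of members, against 23.4% and 35.7% of the others, 5.56% and 20.8% of class S and 4 of 30 and 3 of 10 macrophage-type cells. For G2/M genes class E had 35.0% and 31.0%, and class R 25.6% and 39.1%. The median log2 ratio of the G2/M list was 0.81 in Dox 1 and -0.15 in Dox 2, so the libraries differed in sign. Of the 20 G2/M genes looked at, none was 2-fold higher or lower in both, where 0.379% and 0.245% of all 8169 genes were.

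The Dox libraries were alike within members. Over 1472 genes with a mean of at least 100 CPM, log2 CPM correlated at a Pearson r of 0.99 across genes, which are not independent replicates, and 4 genes were over 2-fold apart. Mgp, the matrix Gla protein gene, differed most, at 827 CPM in Dox 1 members and 175 CPM in Dox 2 members. Gabrp was also higher in Dox 1, at 209 CPM, than in Dox 2, at 93.1 CPM. Members of little Malat1, a nuclear RNA, numbered 5 in each Dox library and 0 in the control.

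With 1 deep control member, Dox could not be tested within members, so it was tested on all kept Epcam-positive cells without copies. The sums held 12414800 UMIs from 199 cells in Dox 1, 25517383 from 516 in Dox 2 and 1719780 from 48 in the control, and the comparison was chosen after the member counts were known. Of 13705 genes, 1635 rose (11.9%) and 1065 fell (7.77%) in edgeR (quasi-likelihood, Benjamini-Hochberg adjusted p up to 0.05). Scaling to total counts instead of TMM turned this split to 896 and 1603, with a median log2 fold change over all genes of -0.24 against 0.07 under TMM, and with no low-count filter 0 and 0 passed, with 4336 genes at an unadjusted p under 0.05. The lone control library is taken to vary as the 2 Dox libraries do. In such sums, fewer cells of a kind and less RNA per cell cannot be told apart. Notch1 and Myc, the genes of the transgenes, rose by log2 2.91 (SE 0.24, adjusted p 0.0062) and 1.59 (SE 0.21, adjusted p 0.0114).

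Of the 6 genes of the label, Alox15 rose and Prss22 fell over the whole epithelium. These genes were chosen with earlier results of these data known, so their p-values serve as a description only. Alox15 was 112 CPM in Dox 1 and 84.3 CPM in Dox 2, against 6.07 CPM in the control, a log2 fold change of 4.01 (SE 0.36, edgeR adjusted p 0.0064). Prss22 was 58.6 and 49.5 CPM in Dox 1 and Dox 2, against 110 CPM in the control (log2 -1.03, SE 0.17, edgeR adjusted p 0.0194). Gabrp had 876 and 607 UMIs in Dox 1 and Dox 2, against 0 in the control, so it was at least 33.3-fold higher against a floor of 3 control UMIs. The bound was 49.7-fold in Dox 1 alone and 16.95-fold in Dox 2 alone. Gabrp did not pass at 0.05 in edgeR with total count scaling, with no low-count filter or in thinned cells. Nor did Gabrp pass with members left out, with copies kept, under a stricter cell filter or with cells of little Malat1 left out. Its adjusted p of 0.0507 in edgeR missed the threshold, and it passed under edgeR's legacy fit at 0.0380, with DESeq2's size factors at 0.0238 and by DESeq2 at 0.0030. Prss36 was 110 and 61.0 CPM in Dox 1 and Dox 2 and 49.5 CPM in the control (edgeR adjusted p 0.251). Fetub was 27.8 and 21.01 CPM in Dox 1 and Dox 2 and 16.7 CPM in the control (edgeR adjusted p 0.297). Otoa was 17.4 and 10.0 CPM in Dox 1 and Dox 2 and 27.8 CPM in the control (log2 -1.05, SE 0.44, edgeR adjusted p 0.158). With members left out of the sums, Alox15 still rose (log2 2.83, edgeR adjusted p 0.0299) and Prss22 still fell (log2 -1.98, edgeR adjusted p 0.0327), while Fetub turned to -0.90 (edgeR adjusted p 0.171) and Otoa stood at -2.09 (edgeR adjusted p 0.0512). Neither Alox15 nor Prss22 passed with no low-count filter, and in cells thinned to 1000 UMIs Prss22 stood at log2 -0.30 (edgeR adjusted p 0.847).

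**Figure D5:**
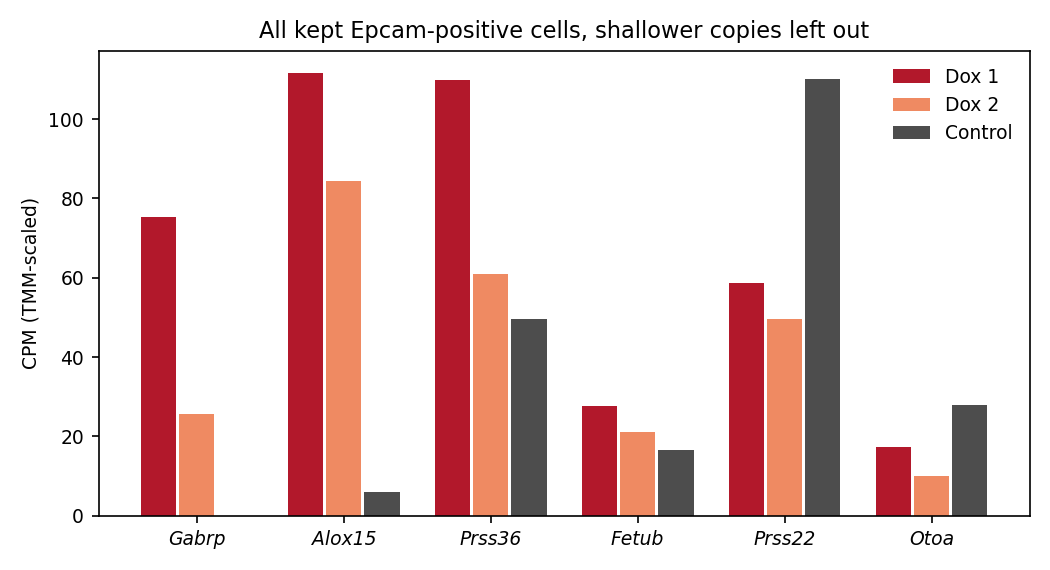
TMM-scaled CPM of the 5 genes of the rule and of Otoa in all kept Epcam-positive cells, copies left out, in Dox 1, Dox 2 and the control, with bars from 0. Alox15 stands at 112 and 84.3 CPM in Dox 1 and Dox 2 against 6.07 CPM in the control, and Prss22 at 58.6 and 49.5 CPM against 110 CPM.

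The 31 higher and 20 lower genes were also read in this test. Of the 31, 5 rose with Dox over the epithelium, Tpm2, Lgalsl, Tlx3, Wfdc3 and Nrp2, and 4 fell, Fxyd3, Emp1, Clu and Mgll, with a median log2 fold change of -0.32, against 0.07 over the genes tested. These counts lie near the 11.9% and 7.77% of all genes that rose and fell. With members left out of the sums, 2 of the 31 rose and 9 fell, where 7.57% and 4.44% of 13363 genes did. The 31 were chosen as high in Dox members, so leaving members out lowers them in the Dox sums. These falls were thus partly set in advance and are no independent result. Wfdc3 was 111 and 121 CPM in Dox 1 and Dox 2 and 5.06 CPM in the control (log2 4.52, SE 0.25, edgeR adjusted p 0.0055). Clu was 3451 and 2367 CPM in Dox 1 and Dox 2 and 9698 CPM in the control (log2 -1.74, SE 0.23, edgeR adjusted p 0.0123). Of the 20 lower genes, 0 rose and 11 fell, with a median of -1.32, where 7.77% of all genes fell. The 20 were chosen as low in members of these same Dox libraries, where members were a larger share of the epithelium than in the control. Their falls are therefore a description and no independent result. With members left out 8 fell, with a median of -1.01, where 4.44% of genes did. Against single classes of the Dox libraries, 18 of these 20 genes were at least 2-fold below class R and 3 below class E. Gpx3 was 65.6 and 108 CPM in Dox 1 and Dox 2 and 471 CPM in the control (log2 -2.44, SE 0.29, edgeR adjusted p 0.0098). Alox12e rose as Alox15 did, at 198 and 156 CPM in Dox 1 and Dox 2 and 11.6 CPM in the control (log2 3.92, SE 0.28, edgeR adjusted p 0.0059).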

How the data were processed

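Cells of dissected cochlear sensory epithelium were captured by droplets on the 10x Genomics platform, as the labels say. Each library has 1 deposited matrix, in which the authors counted UMIs (raw counts, 31053 genes). Tools listed in the submitters' processing notes are Cell Ranger 5.0, Seurat 3.2.2 and STAR, with mm10 (GRCm38) as the build, while the matrix headers, per the file headers, give software version 3.1.0. Intron counting and doublet removal are not given in the sources used here. No doublet caller was run.

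Members were chosen as described, on log-transformed counts per 10000 UMIs. The members, the 4 sets and the gene lists were chosen with earlier results of these data known. Counts were summed per class and library and given as CPM, and class against class is a description with no test. Named genes were the 30 highest and 10 lowest by the smallest ratio over the libraries, at 100 CPM or more in the higher class in at least 2 libraries, without mitochondrial genes, pseudogenes and clone names, besides the genes past 2-fold in both Dox libraries. Clusters came from scanpy 1.11.5 (Leiden, resolution 1, 15 neighbours, 30 principal components, 2000 variable genes).

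Tests of Dox within members, and of the class by Dox term, were not made, because under 10 control members were found. The test over all kept Epcam-positive cells (edgeR 4.0.16, TMM, filterByExpr, R 4.3.3) was added after that. The labels give pooled cultures only, so p-values measure the spread between libraries, which may be technical. On simulated counts for that comparison, over 13287 genes, the test found 21.4% of genes changed 2-fold, 91.8% of those changed 4-fold and 94.3% of those changed 8-fold, and 7 of its 152 calls had no change. The simulation gave every gene the same spread and changed only 56, 73 and 70 well-detected genes at these folds. Its rates therefore need not hold for the real test. Alternatives were other normalizations, filters, DESeq2 1.42.0, copies kept, members left out, thinning and each Dox library left out. Intervals are 95% Clopper-Pearson or exact Poisson intervals, and the floor is 3 counts; both cover counting error only.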

Additional observations from a re-analysis of the deposited data

Results flagged for a closer look

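Barcodes that the cell filter left out were not part of the comparisons. Among those with an Epcam UMI, the Gabrp set scored highest with at least 2 genes detected in 27 of 127 in Dox 1 (21.3%, 95% Clopper-Pearson interval 14.5 to 29.4%) and 22 of 113 in Dox 2 (19.5%, 12.6 to 28.0%). In the control this held for 0 of 21, which allows a share of up to 14.3%. The left-out barcodes thus gave shares close to those of the kept Epcam-positive cells, at 22.8% in Dox 1 and 21.1% in Dox 2. The part of the cell filter in these shares was not tested.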

How the results depend on the processing

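No paired analysis was possible because the labels give the control no replicate number. The planned tests of Dox within members and of the class by Dox term, and their alternatives, were not run, since under 10 control members were found. All alternatives to the Dox test over the epithelium, those that leave out copies, and the level counts with 1 CPM added or 1 Dox library left out were chosen after seeing the data.

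The member share of 10.5% in Dox 1, 14.0% in Dox 2 and 0.980% in the control became 2.19% in Dox 1 and 1.88% in Dox 2 with cells thinned to 1000 UMIs, and 22.8%, 21.1% and 3.33% of Epcam-positive cells. With copies left out it was 24.6% and 22.3% of Epcam-positive cells in Dox 1 and Dox 2, 25.7% and 23.8% of those of at least 10000 UMIs, 2.25% and 1.92% of thinned cells and 6.67% and 4.24% of cells still Epcam-positive after thinning. Other settings stayed within the interval of the main share.

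The counts of 31 higher and 20 lower genes became 79 and 138 with cells thinned to 1000 UMIs, where sums are small, 19 and 52 by the mean of per-cell CPM, and 54 and 40 with 1 CPM added. With 1 Dox library left out they ran from 58 to 85 and from 62 to 76. Thinned cells shared 7 and 12 genes with the main lists, and per-cell means 18 and 20. Col11a1 changed sign in thinned cells, at -0.015; the cause was not tested.

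The 1635 rises and 1065 falls with Dox over the epithelium became 896 and 1603 with total count scaling, 1012 and 593 without members, 247 and 121 in thinned cells, where 4356 genes were tested, and 0 and 0 with no low-count filter, where 4336 of 19152 genes had an unadjusted p under 0.05. DESeq2 called 1173 and 720. Total count scaling moved the median of all genes to -0.24. Gabrp missed the threshold in the main fit and in most alternatives, those with members left out and thinned cells among them. Gabrp passed with DESeq2's size factors in edgeR (adjusted p 0.0238), by DESeq2 (0.0030) and by the legacy fit (0.0380); with 0 control UMIs the fitted log2 values of 12.26, 9.08 and 12.28 depend on how each tool treats 0 and are no measured folds. Alox15 missed the threshold with no low-count filter (4.03, adjusted p 0.158). Prss22 missed it there (-1.01, 0.161) and in thinned cells (-0.30, 0.847). Fetub turned to -0.90 without members (edgeR adjusted p 0.171). Members were chosen partly on Fetub and lay mainly in the Dox libraries, so leaving them out lowers mainly the Dox sums. With 1 Dox library left out, as log2 ratios of CPM with 2 CPM added and no test, Gabrp ran from 3.84 to 5.30 (against 0, so set by the CPM added), Alox15 from 3.43 to 3.79, Prss36 from 0.29 to 1.07, Fetub from 0.30 to 0.63, Prss22 from -1.12 to -0.93 and Otoa from -1.32 to -0.67.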
